A study of Mus musculus with 2 samples.

Results

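The genes described here are cyclins, cyclin-dependent kinases (CDKs), their inhibitors, phosphatases and kinases that act on CDKs, and the E2F and RB genes. Many form the core of the cell cycle engine, while some of the cyclins and CDKs act mostly in transcription or other roles. The 48 members were chosen by gene symbol, with no measured value in the rule but with earlier results of these data known. All 48 were found, each as 1 row, among the 43346 Ensembl genes of the deposited tables. Total RNA was sequenced from mouse bone marrow progenitors labelled CFU-Meg, the colony-forming progenitor of megakaryocytes, which are the cells that release platelets. Both libraries came from male C57BL/6J mice aged 5 to 6 weeks, with no treatment named in the labels, and each was started from 1 ng of RNA. There is 1 group of 2 replicates and no contrast in the design. The replicates are distinct biosamples that share 1 donor identifier, so their spread need not be that between animals, and the sorting gate was not among the information used here.

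A cyclin binds and activates a CDK. D cyclins with CDK4 or CDK6 start the phosphorylation of the RB family, which releases E2F transcription factors; cyclin E with CDK2 carries cells into DNA synthesis, cyclin A with CDK2 or CDK1 through it, and cyclin B with CDK1 into mitosis. INK4 proteins block CDK4 and CDK6, while CIP/KIP proteins bind cyclin-CDK complexes more widely. Maturing megakaryocytes are known for endomitosis, in which DNA is copied again and again without cell division.

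The label was checked against marker genes. Levels are in TPM, a unit that divides reads by transcript length before scaling each library to one total, so that genes can be compared. Of 13 megakaryocyte markers, 3 reached 1 TPM in both libraries (Itga2b, Vwf and Selp). Gp6 and Tubb1 were listed at 0 in both, and the 13 summed to 14.6 and 8.07 TPM in replicates 1 and 2. The 7 neutrophil progenitor markers found, with Mpo and Elane at their head, summed to 16173 and 16750 TPM, and 5 monocyte markers to 2921 and 3331 TPM, of which Ly6c2 alone gave 2767 and 3120 TPM. The 6 erythroid markers summed to 529 and 254 TPM, mostly Car1. The libraries are therefore called by their label only, since the markers that define megakaryocytes were low or absent. The tables held 82746658 and 75652762 expected counts, of which 23.4% and 20.8% lay on 1 gene, Gm42418, and 26.8% and 28.8% on mitochondrial genes. In bulk RNA, fewer cells of a type and less RNA per cell cannot be told apart.

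Promoter sequences are given first, since many cell cycle genes are known to be driven through E2F sites early in the cycle and through CHR and CCAAT elements (the CHR being the cell cycle genes homology region) late in it. RefSeq promoter windows on GRCm38.p6, from 250 bases before to 50 bases after a transcript start, were given for 35 of the 48 members, as 41 windows. They were searched on both strands for the E2F words TTTCCCGC, TTTGGCGC, TTTCGCGC and TTTGCCGC, the CHR words TTTGAA and TTCGAA, and the word CCAAT; the first of the CHR words reads TTCAAA, and CCAAT reads ATTGG, on the other strand, and no word contains another. An E2F word was present in 8 of the 41 windows (19.5%), against 2.26% of all 32851 windows. A CHR word was present in 24.4% against 19.2%, a CCAAT word in 53.7% against 37.4%, 2 or more CCAAT words in 29.3% against 11.7%, and a CHR together with a CCAAT word in 19.5% against 7.52%. A match is a description of the letters, not of a bound site. The 8 stretches below were picked to show the arrangements beside the levels that follow. Each lies within the 150 bases before the start and leaves out any base that GENCODE M21 places in an exon; capitals mark the E2F, CHR and CCAAT words.
Cdk1, chr10:69352939-69353062, minus strand: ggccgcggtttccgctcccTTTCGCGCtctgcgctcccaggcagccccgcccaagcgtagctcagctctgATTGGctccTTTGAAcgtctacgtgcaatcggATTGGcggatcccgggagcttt
Ccnb2, chr9:70421555-70421704, minus strand: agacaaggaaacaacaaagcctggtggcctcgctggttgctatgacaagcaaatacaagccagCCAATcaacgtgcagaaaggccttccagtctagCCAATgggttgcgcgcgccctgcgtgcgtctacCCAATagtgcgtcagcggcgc
Cdkn3, chr14:46760391-46760540, plus strand: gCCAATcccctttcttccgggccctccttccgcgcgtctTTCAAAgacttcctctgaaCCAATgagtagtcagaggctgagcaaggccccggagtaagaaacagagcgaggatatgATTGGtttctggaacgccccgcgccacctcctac
Ccnf, chr17:24251485-24251559, minus strand: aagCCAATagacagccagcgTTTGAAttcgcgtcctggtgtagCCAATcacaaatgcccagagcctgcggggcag
E2f8, chr7:48881597-48881746, minus strand: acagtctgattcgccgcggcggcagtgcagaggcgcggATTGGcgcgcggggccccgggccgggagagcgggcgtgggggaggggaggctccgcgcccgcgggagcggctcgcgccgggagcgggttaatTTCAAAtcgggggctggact
Rbl1, chr2:157204535-157204684, minus strand: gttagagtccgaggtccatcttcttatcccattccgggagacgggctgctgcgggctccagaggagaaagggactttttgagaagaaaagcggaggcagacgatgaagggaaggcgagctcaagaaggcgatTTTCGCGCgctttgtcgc
Cdc25a, chr9:109875429-109875578, plus strand: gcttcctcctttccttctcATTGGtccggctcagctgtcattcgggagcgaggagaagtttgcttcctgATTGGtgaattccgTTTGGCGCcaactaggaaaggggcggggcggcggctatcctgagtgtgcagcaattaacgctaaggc
Cdkn2a, chr4:89294654-89294769, minus strand: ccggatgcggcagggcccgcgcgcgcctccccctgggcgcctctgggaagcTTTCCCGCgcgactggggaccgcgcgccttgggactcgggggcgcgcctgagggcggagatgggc

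Cdk1, the mitotic kinase, held the E2F word TTTCGCGC 131 bases before its start, with a CHR word and a pair of CCAAT words downstream of it in the printed stretch. Ccnb2, a mitotic cyclin, held 3 CCAAT words there, with CHR words outside the printed stretch at positions -167 and 5 from its start, and Cdkn3 and Ccnf each held CCAAT words together with a CHR word. Rbl1 and Cdc25a held an E2F word and no CHR word. The upstream start of Cdkn2a held TTTCCCGC as well, and no read was assigned to that gene in either library. Across the 8 members with an E2F word the median level was 8.77 TPM, with a range from 0 to 47.8 TPM, and across the members with a window but no such word it was 15.2 TPM. The medians with and without a CHR word were 10.2 and 15.2 TPM, and with and without a CCAAT word 10.8 and 18.3 TPM. Any link between the words and the levels was not tested.

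Nearly the whole set was expressed. Gene positions below are those of GENCODE M21 on GRCm38 (mm10). In both libraries, 44 of the 48 members reached 1 TPM, as did 25.6% of all Ensembl genes and 46.2% of the 21461 protein-coding genes outside the mitochondrial genome. The exceptions were Ccna1, Cdkn1c, Cdkn2a and Cdkn2b, that is, 1 cyclin and 3 inhibitors. Reaching 10 TPM in both libraries were 28 members, and 26 had a mean above 11.5 TPM, the median of protein-coding genes that reached 1 TPM in both. The median member stood at 13.8 TPM in replicate 1 and 15.8 TPM in replicate 2. Together the 48 genes took 1280 and 1282 TPM, from 190254 and 174650 expected counts (0.230% and 0.231% of each library). Values after ± are SDs over the 2 libraries (n = 2).

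**Figure D1:**
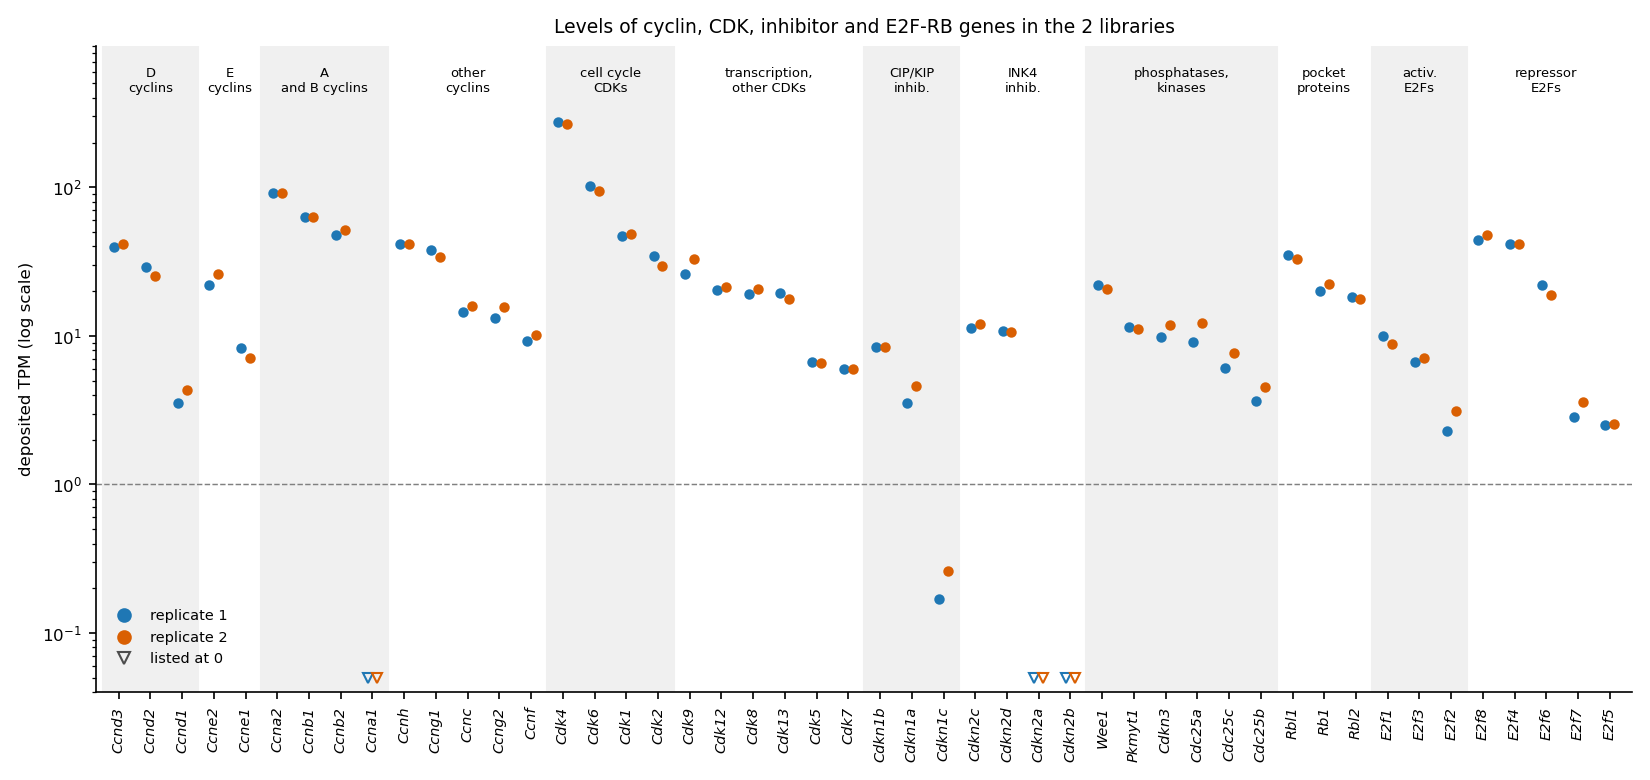
Deposited TPM (log scale) of each of the 48 members in replicate 1 (blue) and replicate 2 (orange), grouped by family in grey and white bands and ordered by mean within a family; open triangles are genes listed at 0, drawn at an arbitrary height, and the dashed line is 1 TPM. Cdk4 stands highest at 276.5 and 267 TPM, and only Ccna1, Cdkn1c, Cdkn2a and Cdkn2b lie below the line.

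Among the D cyclins, the sensors of growth signals, Ccnd3 and Ccnd2 carried nearly all of the signal. Ccnd3 stood at 39.4 TPM in replicate 1 and 41.5 TPM in replicate 2, Ccnd2 at 29.1 and 25.2 TPM, and Ccnd1 at 3.54 and 4.33 TPM. The order was the same in both libraries, and the credibility intervals that the authors deposited for neighbours did not overlap in either. Ccnd3 over Ccnd2 was 1.50 ± 0.21, and Ccnd2 over Ccnd1 was 7.02 ± 1.71. With transcripts annotated as protein coding only, these were 1.44 ± 0.24 and 9.31 ± 1.34. The leading transcript of Ccnd3 held 85.7% and 77.7% of its TPM, and a second protein-coding transcript held 7.07% and 20.0%. Ccnd2 had a single listed transcript. Ccnd1 had a 470-base retained-intron transcript at 19.9% and 30.5% of its TPM, with interval bounds from 6.2e-05 to 1.58 TPM in replicate 1, so that the share was poorly fixed there. By reads, 2.23% and 3.90% of Ccnd1 lay off its coding transcript.

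Of the E cyclins, the partners of CDK2 at the start of DNA synthesis, Ccne2 exceeded Ccne1. Ccne2 stood at 21.9 and 26.0 TPM and Ccne1 at 8.34 and 7.07 TPM, and their intervals lay apart in both libraries. The ratio of Ccne2 to Ccne1 was 2.63 in replicate 1 and 3.68 in replicate 2 (3.15 ± 0.74).

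The A and B cyclins of S phase and mitosis were the highest cyclins. Ccna2 stood at 91.3 and 91.9 TPM, Ccnb1 at 62.6 and 63.4 TPM and Ccnb2 at 47.6 and 51.8 TPM. The 3 kept this order with intervals apart in both libraries, and Ccna2 over Ccnb1 was 1.46 in replicate 1 and 1.45 in replicate 2. Ccna1, the A cyclin best known from the male germ line, had no read in either library, which allows up to 0.0338 and 0.0364 TPM (3 counts, for counting error only). Within Ccnb1, named here after its values were seen, the leading transcript held 46.8% and 63.2% and another protein-coding transcript 43.9% and 32.5%. The gene total hardly moved in TPM. By scaled counts, its log2 ratio of replicate 2 over replicate 1 was 0.14. The pseudogenes Ccnb1-ps, at 0.56 and 0.76 TPM, and Ccnb2-ps, at 2.29 and 2.31 TPM, were far below their parent genes. Expected counts were fractional for Ccnb1 and whole for Ccnb2 and Ccnb2-ps in both libraries.

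The other cyclins act mostly outside the core cycle, and all 5 passed 1 TPM. Ccnh, the cyclin of the CDK-activating kinase, stood at 41.8 and 41.3 TPM, and Ccng1, a p53 target, at 37.6 and 33.9 TPM. Ccnc, the partner of CDK8 in the Mediator kinase module, stood at 14.4 and 15.9 TPM, and Ccng2, often linked to arrest, at 13.1 and 15.7 TPM. Intervals of Ccnc and Ccng2 overlapped in replicate 2. Ccnf, an F-box cyclin that acts in a ubiquitin ligase, was the lowest at 9.24 and 10.1 TPM.

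The cell cycle CDKs were the highest family, with a median of 72.9 ± 2.6 TPM. Cdk4, at chr10:127063534-127067920 on the plus strand, stood at 276.5 and 267 TPM and was the highest of all 48 members. Cdk6 followed at 102 and 93.8 TPM, then Cdk1 at 47.1 and 48.5 TPM and Cdk2 at 34.4 and 29.4 TPM. All neighbours in this order had intervals apart in both libraries. The gene total of Cdk4 over that of Cdk6 was 2.77 ± 0.11.

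Part of the Cdk4 signal lay outside coding transcripts, and its size depends on the measure. TPM gives short transcripts more weight per read. By reads, transcripts not annotated as coding held 20.2% and 17.7% of the gene, and by TPM 48.1% and 46.2%. The leading coding transcript held 45.3% and 44.6% of its TPM, while a 468-base retained-intron transcript held 32.3% and 36.8% and a 574-base one 8.05% and 6.58%. The 468-base transcript held 9.17% and 10.8% of the reads. Counting only transcripts annotated as protein coding, Cdk4 stood at 143 and 144 TPM and the ratio to Cdk6 fell to 1.47 ± 0.09. Cdk4 remained the highest member of its family on that scale. An exon of Tspan31 overlaps Cdk4 on the opposite strand, and no source used here says whether strand was used. Its part in the retained-intron share was not tested.

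Among the CDKs of transcription and other roles, Cdk9, the elongation kinase, was highest at 26.2 and 33.0 TPM. Cdk12 and Cdk13, kinases of the polymerase tail, stood at 20.3 and 21.2 TPM and at 19.5 and 17.7 TPM, and Cdk8, the Mediator kinase, at 19.0 and 20.8 TPM. Neighbours among these 3 were not separated in both libraries. Cdk5, best known from neurons, stood at 6.67 and 6.61 TPM; of its activators, Cdk5r1 stood at 2.40 and 2.06 TPM and Cdk5r2 was listed at 0. In Cdk8, a 1976-base retained-intron transcript held 36.2% and 29.8% of the TPM, against 36.6% and 41.7% for the leading coding transcript; the intervals of the pair overlapped in replicate 1 and lay apart in replicate 2. By reads, transcripts of Cdk8 not annotated as coding held 36.5% and 23.7%. With coding transcripts alone, Cdk8 fell to a mean of 12.6 TPM, below Cdk13 at 18.6 TPM.

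The TPM of Cdk7, the kinase of the CDK-activating complex with Ccnh, depends on its transcript model. The gene, at chr13:100702631-100730939 on the minus strand, stood at 5.95 and 5.96 TPM although 2757 and 2561 expected counts were assigned to it, close to the 2789 and 2825 counts of Cdk8. Its single listed transcript is 7595 bases long in the deposited tables, whereas GENCODE M21 gives that transcript 1988 bases. The leading transcript of Cdk6 differs in the other direction, with 3735 bases in the tables and 11525 in M21. Of 45 members with reads, 40 had a leading transcript within 25% of its M21 length; the other 3 were Ccnf, Cdk13 and Wee1. Levels of these 5 genes carry that limit.

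**Figure D2:**
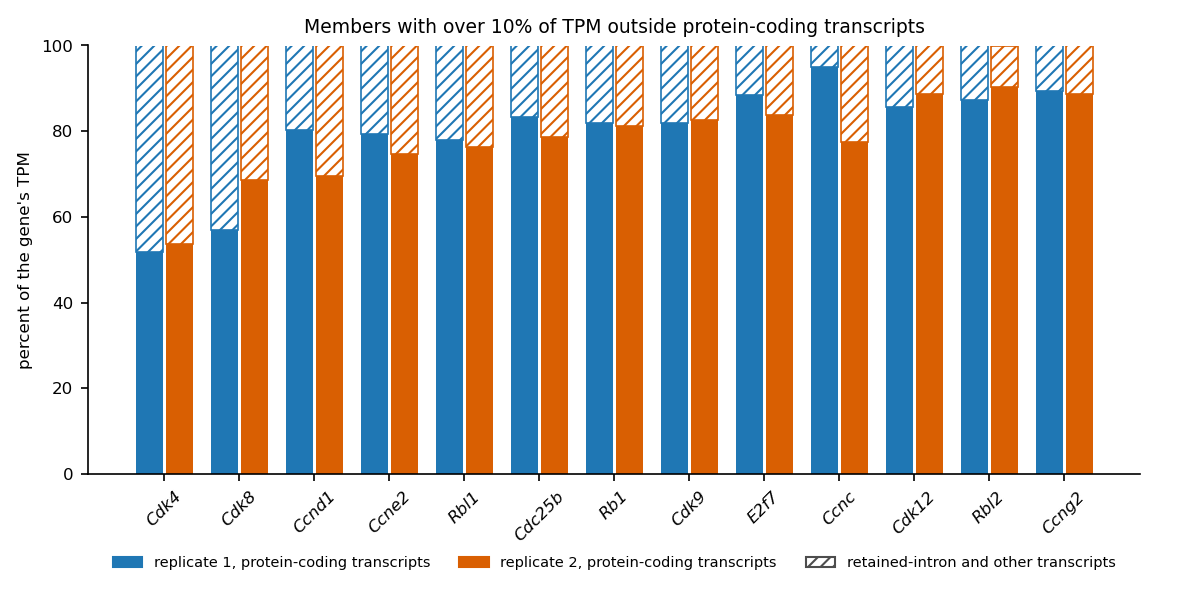
Percent of the gene's TPM from transcripts annotated as protein coding in GENCODE M21 (filled) and from retained-intron and other transcripts (hatched) for the 13 members with a mean of over 10% outside coding transcripts; blue is replicate 1 and orange replicate 2. Cdk4 and Cdk8 have the largest hatched shares, with means of 47.2% and 37.2% of TPM. By reads, the largest means among the 13 are those of Cdk8 at 30.1% and Cdk9 at 27.4%, with Cdk4 at 18.9%.

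The CDK inhibitors had the lowest family medians, but that of INK4 is low because 2 of its 4 genes had no read. In the CIP/KIP family, Cdkn1b (p27) led at 8.44 and 8.43 TPM, and Cdkn1a (p21), the inhibitor induced by p53, stood at 3.53 and 4.58 TPM. Cdkn1c (p57), an imprinted gene known from quiescent stem cells, stood at 0.17 and 0.26 TPM on 19 and 26 reads. The intervals of all 3 lay apart in both libraries. The family summed to 12.1 and 13.3 TPM.

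The INK4 family split into a pair that was expressed and a pair with no read. Cdkn2c (p18) stood at 11.3 and 12.0 TPM and Cdkn2d (p19) at 10.8 and 10.5 TPM, with overlapping intervals. Cdkn2a (chr4:89274471-89294653, minus strand), which encodes p16 and Arf from alternative first exons, had no read on either of its 2 listed transcripts, which allows the gene up to 0.0657 and 0.0705 TPM. Cdkn2b (p15), its neighbour at chr4:89306299-89311039 on the same strand, had none either, which allows up to 0.0385 and 0.0414 TPM. The summed TPM of Cdk4 and Cdk6 was 16.6 ± 0.7 times that of the 4 INK4 genes, and 10.8 ± 0.4 times with coding transcripts only.

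The phosphatases and inhibitory kinases of CDKs were all expressed, at moderate levels. Wee1, a kinase that blocks CDK1, stood at 22.0 and 20.7 TPM, and Pkmyt1, the membrane-bound kinase with a like role, at 11.6 and 11.2 TPM. Of the activating phosphatases, Cdc25a stood at 9.03 and 12.2 TPM, Cdc25c at 6.09 and 7.65 TPM and Cdc25b at 3.65 and 4.50 TPM. Cdkn3, a phosphatase that acts on the activating site of CDKs, stood at 9.77 and 11.8 TPM. Wee1 was above the rest of the family in deposited TPM in both libraries, and Cdkn3 and Cdc25a were not separated. The lead of Wee1 depends on its transcript model, with a deposited length of 1941 bases against 3419 in GENCODE M21. All 3 Cdc25 genes and Cdkn3 were higher in replicate 2.

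Cdc25b was the only member whose leading transcript differed between the libraries. One protein-coding transcript held 68.5% in replicate 1 and 33.3% in replicate 2, and another 14.9% and 45.4%. These shares rest on 568 and 625 reads for the whole gene. The deposited TPM intervals of the 2 libraries overlapped for the first transcript (2.00 to 3.00 and 0.876 to 2.07 TPM). They did not for the second (0.0600 to 0.929 and 1.41 to 2.60 TPM). The other 44 members with reads kept their leading transcript, and it was protein coding in all 45.

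The pocket proteins, which hold E2Fs in check, were each well above 10 TPM. Rbl1 (p107) stood at 35.0 and 32.7 TPM, Rb1 at 20.1 and 22.4 TPM and Rbl2 (p130) at 18.2 and 17.6 TPM, with intervals apart between neighbours in both libraries. Rbl1 over Rb1 was 1.60 ± 0.20. Transcripts not annotated as coding held 22.8% of Rbl1, 18.4% of Rb1 and 11.2% of Rbl2 by TPM on average, and 12.2%, 1.68% and 2.43% by reads.

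Activator E2Fs were lower than the repressors as a family. E2f1 stood at 9.94 and 8.83 TPM, E2f3 at 6.70 and 7.12 TPM and E2f2 at 2.28 and 3.12 TPM. Among the repressors, E2f8, an atypical E2F that acts without a DP partner, stood at 44.2 and 47.7 TPM, and E2f4, the main partner of p107 and p130, at 41.6 and 41.7 TPM. E2f6, which works with Polycomb proteins, stood at 22.1 and 18.8 TPM. E2f7, the other atypical E2F, stood at 2.83 and 3.59 TPM, and E2f5 at 2.51 and 2.57 TPM. The atypical pair was thus far apart, with E2f8 over E2f7 at 14.4 ± 1.6, and the 5 repressors summed to 5.99 times the 3 activators in replicate 1 and 6.00 times in replicate 2. All E2f3 signal lay on 1 listed transcript of 4702 bases, beside a 216-base one at 0, so the E2f3a and E2f3b forms could not be told apart.

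The genes around this set were read from lists of partners and regulators, chosen with earlier results of these data known. Of 47 such genes, 44 reached 1 TPM in both libraries, against 25.6% of all Ensembl genes and 46.2% of protein-coding genes. In the DREAM and MuvB list, which represses or activates cell cycle promoters, the highest were Tfdp1, the DP partner of E2Fs, at 119 and 125 TPM, Rbbp4 at 106 and 97.2 TPM and Lin37 at 27.6 and 22.7 TPM. In the anaphase-promoting complex list, which destroys mitotic cyclins, they were Ube2c at 115 and 112 TPM, Ube2s at 105 and 119 TPM and Cdc16 at 48.8 and 43.4 TPM. In the SCF and CKS list, which acts on p27 among others, Cks2 stood at 205 and 251 TPM, Skp1a at 103 and 119 TPM and Cks1b at 110 and 111 TPM.

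The remaining lists covered transcription, p53 and the DNA damage checkpoints. Among partners of the transcription CDKs, Larp7 stood at 29.8 and 34.2 TPM, Ccnk, the cyclin of CDK12 and CDK13, at 26.2 and 29.1 TPM, and Med12 at 26.4 and 22.4 TPM. In the p53 list, Trp53 stood at 71.0 and 51.4 TPM, Mdm4 at 35.0 and 27.0 TPM and Mdm2 at 28.3 and 31.1 TPM, whereas Plk3 stood at 0.56 and 0.83 TPM. Of the checkpoint kinases, Chek1 stood at 21.8 and 17.6 TPM, Atr at 18.4 and 12.6 TPM and Atm at 11.9 and 16.8 TPM.

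The family medians ranged widely. After the cell cycle CDKs came the A and B cyclins at 56.4 ± 1.8 TPM, the D cyclins at 27.1 ± 2.8 TPM, the pocket proteins at 21.2 ± 1.7 TPM and the repressor E2Fs at 20.5 ± 2.3 TPM. The transcription CDKs stood at 19.3 ± 0.046 TPM and the E cyclins at 15.8 ± 1.0 TPM. The other cyclins stood at 15.2 ± 1.1 TPM and the CDK phosphatases and kinases at 10.7 ± 1.5 TPM. Activator E2Fs at 6.91 ± 0.30 TPM, INK4 inhibitors at 5.34 ± 0.10 TPM and CIP/KIP inhibitors at 4.06 ± 0.74 TPM were the lowest. The INK4 median lies between Cdkn2d and a gene with no read. The 2 expressed INK4 genes each stood above all 3 activator E2Fs in both libraries. The middle ranks were not fixed: the repressor E2Fs stood above the pocket proteins in replicate 1 (22.1 against 20.1 TPM) and below the transcription CDKs in replicate 2 (18.8 against 19.2 TPM), and above the pocket proteins with coding transcripts only (20.5 against 17.3 TPM). Of the 12 families, 10 had their members in the same order in both libraries. The exceptions were the transcription CDKs and the CDK phosphatases and kinases. Of the 36 pairs of neighbours within families, 27 had deposited intervals apart in both.

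Between the libraries, members differed by less than a log2 ratio of 1. Expected counts were tested by an exact binomial test, two-sided, with the split of reads set by edgeR's TMM scaling, adjusted over 14304 genes; this compares 2 libraries, not conditions. No member of the 45 tested passed an adjusted p under 0.05 together with an absolute log2 ratio of 1, against 7.66% of all genes tested (1096 genes). The genes tested include some under 1 TPM, whereas 44 of the 45 members were at 1 TPM or more in both libraries. With no minimum ratio, 30 members passed, 21 higher and 9 lower in replicate 2, against 59% of all genes; 32 members had an unadjusted p under 0.05. The median absolute log2 ratio was 0.14 over the 44 members at 1 TPM or more in both libraries and 0.16 over all 11065 genes tested at that level. Of those 11065 genes, 61.7% had an adjusted p under 0.05, as did 30 of the 44 members. An absolute log2 ratio of 0.5 or more was found for 11.1% of those genes and for 1 of those members. Over those members the SD was 6.23% of the mean in the median and 22.0% at most, for E2f2.

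**Figure D3:**
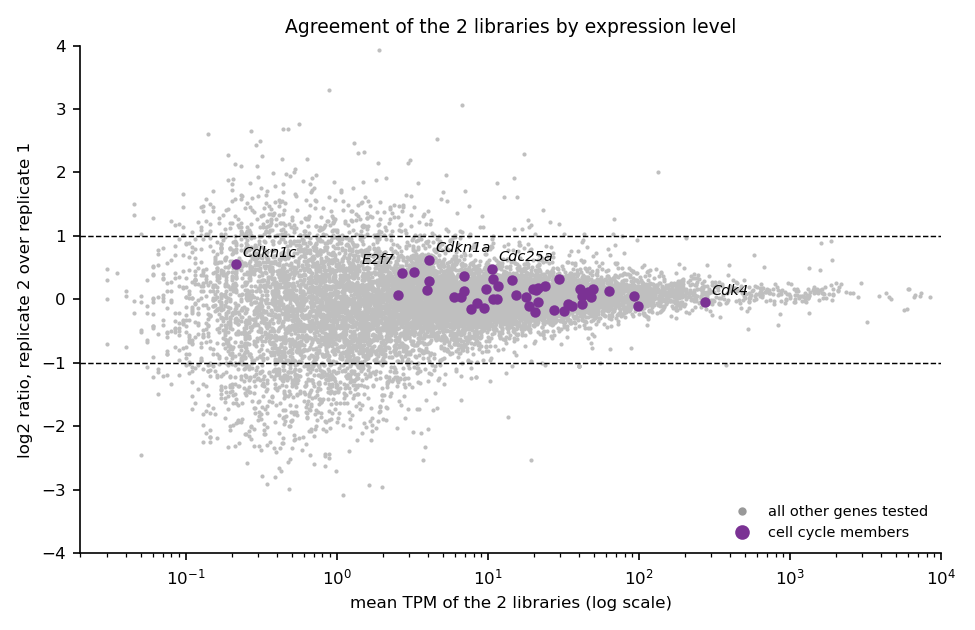
Log2 ratio of replicate 2 over replicate 1 (TMM-scaled expected counts) against mean TPM (log scale) for the genes tested, members in purple and others in grey; dashed lines are log2 ratios of 1 and -1, and 8 genes fall outside the drawn range. The members lie between the dashed lines, with Cdkn1a and the low Cdkn1c highest.

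By count ratio, Cdkn1a differed most among members at 1 TPM or more in both libraries. It had 337 and 468 reads and a log2 ratio of 0.62. The 95% exact binomial interval ran from 0.42 to 0.83, and the binomial test gave an adjusted p of 6.45e-09. Such intervals and p-values cover counting error only, not other spread between libraries. On the TPM scale its log2 ratio was 0.38, below E2f2 at 0.45 and Cdc25a at 0.44. A short coding transcript held 22.4% of its TPM in replicate 1 and none in replicate 2, so the effective length of the gene differed too. An exon of another gene overlaps Cdkn1a on the opposite strand.

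By count ratio the next were Cdc25a, E2f7, E2f2 and Cdc25c, all higher in replicate 2. The order depends on the scale: in TPM, E2f2 came first among members at 1 TPM or more, and Cdk9, at 0.33 with 26.2 and 33.0 TPM, passed Cdc25c. Cdc25a had 1956 and 2462 reads and a log2 ratio of 0.48 (interval 0.40 to 0.57). E2f7 had a log2 ratio of 0.43 (0.28 to 0.58), E2f2 of 0.42 (0.26 to 0.58) and Cdc25c of 0.37 (0.22 to 0.52). Cdkn1c had a log2 ratio of 0.55, but its interval from -0.31 to 1.54 included 0. The marker sums moved as well between the libraries, as given above (megakaryocyte 14.6 and 8.07 TPM, erythroid 529 and 254 TPM, monocyte 2921 and 3331 TPM). Within the neutrophil list, S100a8 stood at 1313 and 2377 TPM and S100a9 at 1138 and 2030 TPM, against Mpo at 6306 and 5478 TPM and Elane at 3661 and 2759 TPM. Their part in the differences was not tested.

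**Figure D4:**
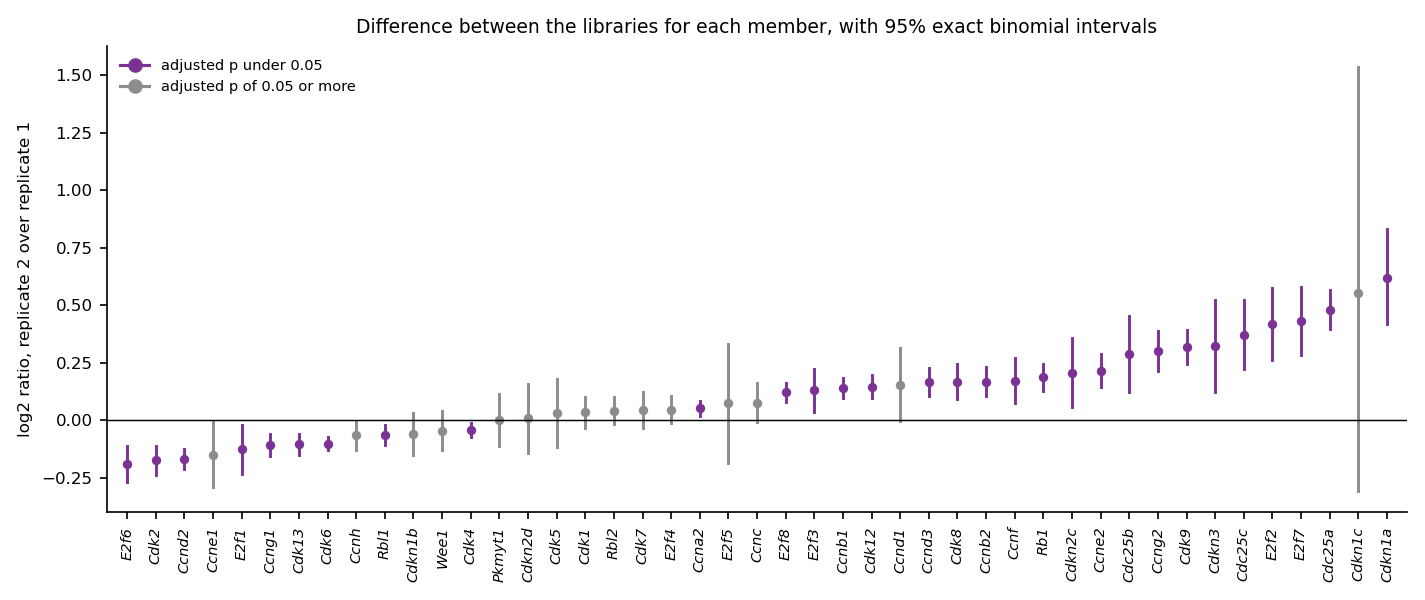
Log2 ratio of replicate 2 over replicate 1 for the 45 members with reads, in rising order, with 95% exact binomial intervals. The intervals cover counting error only. Purple marks an adjusted p under 0.05 and grey the rest. Ratios run from -0.19 for E2f6 to 0.62 for Cdkn1a, and the widest interval is that of Cdkn1c.

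Depth limited few members. With 3 exceptions at 0 and Cdkn1c at 19 and 26 reads, each member had at least 243 reads in each library. Whole expected counts, within 0.005, were found in both libraries for 33 members and fractional ones, which arise when reads are divided among features, for 12, among them Ccnd3, Ccna2, Ccnb1, Cdk4 and E2f8. An exon of another gene lies on the opposite strand of 21 members, and reads from such a pair cannot be told apart if strand was not used.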

How the data were processed

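Total RNA was measured in 2 libraries of 1 group. Per the file headers and lists deposited by the authors, reads were quantified on mm10 with GENCODE M4, each library on its own. Column names are those RSEM writes; no source used here gives the aligner, the quantifier's version or strand use. The deposited files give the authors' expected counts (estimated reads), TPM, FPKM, the percent of a gene's TPM on each transcript, and credibility bounds, treated as a score, per the file headers. Members were matched by version-stripped Ensembl identifier to GENCODE M21, which also gave positions and transcript types; 98.0% of Ensembl genes matched. The members and lists were chosen with earlier results of these data known. All 48 members were named; of each partner list the 3 highest and those under 1 TPM in both libraries; of transcripts those leading with under 50% or differing in lead, and those of Cdkn2a, E2f3 and the D cyclins; between the libraries the 5 largest ratios among members at 1 TPM or more.

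Expected counts were rounded and filtered with edgeR 4.0.16 (filterByExpr, TMM), and compared by SciPy 1.17.1's exact binomial test with Benjamini-Hochberg adjustment and a prior count of 2 in the log ratios. DESeq2 1.42.0 gave alternative size factors. The test was tried on simulated data with 200 changed genes. The simulated counts varied by counting error alone, as the test assumes. The trial therefore cannot show how the test behaves on libraries that vary more. A count of 0 was read as up to 3 counts. Intervals cover counting error only. Depth was 82746658 and 75652762 expected counts.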

Additional observations from a re-analysis of the deposited data

How the results depend on the processing

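No paired analysis was possible because there is 1 group. The count of 44 members at 1 TPM was 44 under FPKM, posterior mean TPM, rescaled TPM, a minimum of 0.5 TPM, a minimum of 10 counts, coding transcripts alone and either library alone, and 38 at a minimum of 5 TPM. Family medians are given for D cyclins, E cyclins, A and B cyclins, other cyclins, cell cycle CDKs, transcription CDKs and CIP/KIP. INK4, CDK phosphatases and kinases, pocket proteins, activator E2Fs, repressor E2Fs and all members follow in that order. In FPKM they were 20.5, 12.0, 42.6, 11.5, 55.2, 14.6, 3.07, 4.04, 8.11, 16.1, 5.23, 15.5 and 11.2. In TPM rescaled over protein-coding genes they were 67.3, 39.2, 139.6, 37.6, 180.7, 47.7, 10.04, 13.2, 26.5, 52.6, 17.1, 50.7 and 36.6. Both are changes of scale. In posterior mean TPM only that of the transcription CDKs moved by more than its SD, to 19.0. With coding transcripts only, an alternative chosen after seeing the data, the medians that moved were 12.97 for E cyclins, 54.2 for A and B cyclins, 13.01 for other cyclins, 15.3 for transcription CDKs, 17.3 for pocket proteins and 12.7 for all members. Order within families changed for Cdk8 and Cdk13 there, and for Cdkn2a and Cdkn2b, both at 0 reads, in posterior means. Leaving out a replicate gave medians of 25.2 to 29.1 (D), 15.1 to 16.5 (E), 55.1 to 57.6 (A and B) and 14.4 to 15.9 (other cyclins). They were 71.1 to 74.8 (cell cycle CDKs), 19.2 to 19.3 (transcription CDKs), 3.53 to 4.58 (CIP/KIP) and 5.27 to 5.41 (INK4). The rest were 9.40 to 11.5 (CDK phosphatases and kinases), 20.1 to 22.4 (pocket), 6.70 to 7.12 (activators), 18.8 to 22.1 (repressors) and 13.8 to 15.8 (all). No member was called between the libraries with DESeq2 size factors, total counts, no filter or counts divided by 4, and 30 were called with no minimum ratio. On the TPM scale 4 small log2 ratios changed sign: Cdk5 at -0.013, Cdkn2d at -0.038, Pkmyt1 at -0.044 and Rbl2 at -0.052. With 2 libraries, each SD rests on a single difference.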
